A study of Bos taurus with 30 samples.

Results

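The miR-29 family of microRNAs was measured in the anterior pituitary, the part of the gland that secretes hormones such as LH, FSH and growth hormone, of Holstein-Friesian bull calves. Its members were the rows of the deposited table whose number after the prefix bta-miR- is 29, with any letter or arm, which gave 6 of the 1030 mature miRNAs listed. These were bta-miR-29a, bta-miR-29b, bta-miR-29c, bta-miR-29d-3p, bta-miR-29d-5p and bta-miR-29e, written below without the prefix, where 3p and 5p name the 2 arms of a hairpin precursor. The members were chosen by name and no measured value entered the rule, but the family was picked for description with earlier results of these data known, so its diet values are not independent evidence. Small RNA libraries came from 30 calves, 1 library per calf, of which 15 were fed a high plane of nutrition (HI) and 15 a moderate plane (MOD) from 2 weeks of age until tissue was taken at 12 weeks. The HI calves received 1.5 kg of milk replacer in 10 litres per day with ad libitum concentrate, and the MOD calves 0.5 kg in 4 litres per day with at most 0.5 kg of concentrate. All were also offered hay and water. The calves came from several farms and sires, over which the diets were balanced, and which the labels do not give per calf.

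A miRNA is a short RNA that guides the silencing machinery to messenger RNAs by pairing through its seed, the bases near its 5′ end, and miRNAs with the same seed can share targets. In mammals miR-29a, miR-29b and miR-29c share a seed and are best known for repressing collagens and other extracellular matrix genes in fibroblasts, and for repressing the DNA methyltransferases DNMT3A and DNMT3B. Transcription of the family is known to be repressed by MYC and by TGF-beta signalling. RefSeq's gene table for ARS-UCD2.0, which is not the assembly used for the deposited values, places MIR29A next to MIR29B-1, MIR29B-2 next to MIR29C, and MIR29E next to MIR29D. The pairs of MIR29B-2 with MIR29C and of MIR29E with MIR29D lie on the same chromosome. The mature miR-29b is made from both MIR29B-1 and MIR29B-2, so its row does not tell the 2 genes apart.

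Values are reads per 1e+06 miRNA reads, divided by a TMM factor that corrects each library for composition, and are written CPM. A single read was counted per miRNA molecule whatever its length, so that levels can be set beside each other, but the ligation steps of small RNA libraries favour some sequences and were not measured here. The HI libraries held 6650492 to 11086524 miRNA reads and the MOD libraries 7685030 to 9916490. Between 0.266 and 0.419 CPM corresponded to 3 reads, the upper limit behind a value of 0. The tissue label was checked on the endocrine marker miR-375, which was the most abundant miRNA at 14.6% of reads, followed by miR-148a (9.33%) and miR-26a (5.95%). In 5 of the 419 miRNAs tested (1.19%) the range of a set of 9 libraries does not overlap that of the other 21. The 9 came from the calves last in label number (5 HI and 4 MOD), and the 21 from 10 HI and 11 MOD calves. That boundary was drawn on earlier results of these data, and values are therefore also given with and without these 9 libraries.

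The family as a whole held 0.432% ± 0.0321 (SD, n = 30) of the miRNA reads of a library. Its summed level had a lowest value of 3828 CPM, a median of 4118 CPM and a highest value of 4489 CPM in HI calves, and in MOD calves the same values were 3818, 4482 and 4933 CPM. The sum follows miR-29a, the most abundant member, which on average made up 64.3% of it. The remainder was 23.0% miR-29c, 10.3% miR-29b, 2.19% miR-29d-5p, 0.185% miR-29d-3p and 0.0281% miR-29e.

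The levels of the 6 miRNAs formed the same order in all 30 calves, and no neighbours in that order overlapped in range. Expression of miR-29a was 2776 ± 225 CPM (SD, n = 30), which ranked 46 among the 1030 miRNAs. Next was miR-29c at 995 ± 81.2 CPM, and miR-29a exceeded it by a median of 2.80 times (range 2.47 to 3.20). A level of 445 ± 82.4 CPM was measured for miR-29b, which miR-29c exceeded by a median of 2.34 times. Below it lay miR-29d-5p at 94.4 ± 12.2 CPM and miR-29d-3p at 7.93 ± 1.75 CPM. The last of the order was miR-29e at 1.21 ± 0.478 CPM, with 2 to 18 reads per library. None of the 6 was at 0 in any library.

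**Figure D1:**
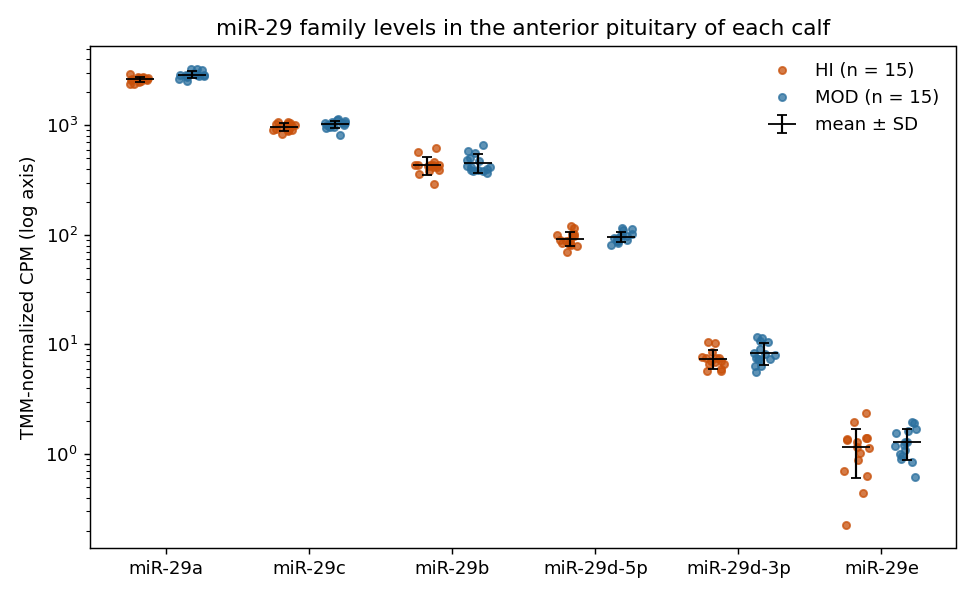
TMM-normalized CPM on a log axis for the 6 miR-29 miRNAs, with 1 point per calf (HI and MOD, n = 15 each) and black bars for the mean ± SD. The members stand in the order miR-29a, miR-29c, miR-29b, miR-29d-5p, miR-29d-3p and miR-29e, from a mean of 2776 to 1.21 CPM, and in each of them the diets overlap.

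How much a member varied from calf to calf was not set by its depth alone. The coefficient of variation over the 30 calves was 8.09% for miR-29a and 8.16% for miR-29c, against 0.644% and 1.08% that the counting of reads alone would give. It was 18.5% for miR-29b, with 1.61% from counting, so that miR-29b varied more than the more weakly expressed miR-29d-5p (12.9%, with 3.50% from counting). For miR-29d-3p it was 22.0% with 12.0% from counting, but 13.8% within the 21 libraries alone. For miR-29e it was 39.3% with 31.2% from counting. The variation of miR-29e was thus close to what its mean of 10.3 reads per library gives, and small differences in it were not detectable at this depth. In 8 of the 30 libraries the recovered count of miR-29b was not whole (tolerance 0.01 reads), and the other 5 members were whole in every library.

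Between the diets miR-29a, the leading member, was lower in HI calves. Its lowest, median and highest levels were 2383, 2650 and 2927 CPM in HI calves and 2519, 2867 and 3291 CPM in MOD calves. The ranges overlap, but 14 of the 15 HI calves lay below the MOD median, 3 HI calves lay below the lowest MOD calf and 5 MOD calves lay above the highest HI calf. On average HI calves had 2638 ± 143 CPM and MOD calves 2914 ± 208 CPM (SD, n = 15 each). In limma the mean of log2(CPM + 1) differed by -0.14 (HI minus MOD, standard error 0.04) with an FDR of 0.0365, adjusted by Benjamini-Hochberg over 419 miRNAs. This is a change of -9.38%. In bulk tissue fewer cells of a type and less RNA per cell cannot be told apart. Thus 1 of the 6 members passed FDR < 0.1, beside 15 of all 419 tested (3.58%), of which 7 were lower (1.67%) and 8 higher (1.91%) in HI calves. The count of members called was also 1 with edgeR's quasi-likelihood test, which called 4.77% of the 419, and with DESeq2, which called 5.73%. By p miR-29a was at place 7 of the 419. It did not approach the study's other threshold, a fold change of 1.5, which 2 of the 419 (0.477%) passed together with FDR < 0.1.

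The call for miR-29a depended on how libraries were scaled. The deposited TMM factors averaged 1.02 ± 0.0724 in HI and 0.979 ± 0.0313 in MOD libraries (SD, n = 15 each), so dividing by them lowered HI values relative to MOD values. As a plain share of all miRNA reads, miR-29a averaged 2702 ± 229 CPM over the HI group and 2849 ± 175 CPM over the MOD group (SD, n = 15 each), and the log2 difference was -0.079 with FDR = 0.411 from limma, where 4.30% of the 419 passed. Leaving the 5 most abundant miRNAs out of the library sizes gave -0.076 with FDR = 0.305, where 4.77% passed. Upper quartile normalization gave -0.24 with FDR = 0.00347, where 6.92% passed. On these scalings the median log2 difference of all 419 miRNAs was 0.07, 0.08 and -0.07, against 0.02 with TMM. The direction was the same in each of the 4 scalings, and relative to that median the difference of miR-29a was -0.16 with TMM, -0.15 on total counts, -0.15 without the 5 most abundant and -0.17 with upper quartile normalization.

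**Figure D2:**
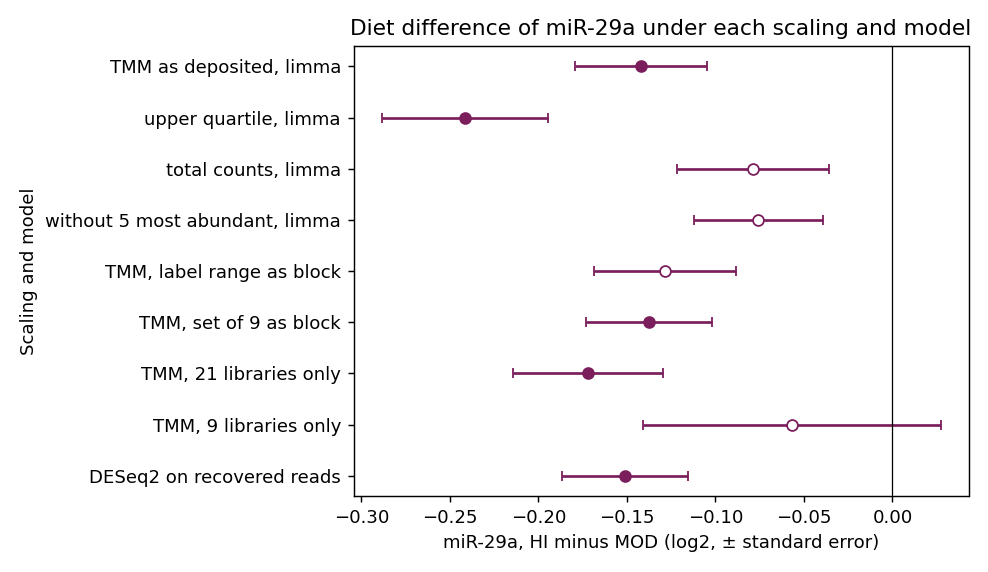
Log2 difference of miR-29a between HI and MOD calves (x axis, bars for the standard error) under 4 scalings, 2 blocks, 2 subsets of libraries and DESeq2 on the recovered reads. Filled points passed FDR < 0.1 and open points did not; every estimate is below 0, from -0.24 with upper quartile normalization to -0.057 in the 9 libraries alone.

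With TMM scaling the estimate for miR-29a was below 0 in each set of libraries, but it did not pass a test in all of them. In the 21 libraries with lower label numbers it ran from 2383 to 2927 CPM in 10 HI calves and from 2778 to 3291 CPM in 11 MOD calves, a log2 difference of -0.17 (exact two-sided permutation test, p = 0.000108). On total counts it was -0.11 in these libraries (exact permutation test, p = 0.0227). In the other 9 libraries it ran from 2497 to 2789 CPM in 5 HI calves and from 2519 to 2908 CPM in 4 MOD calves, and the log2 difference of -0.057 did not exceed the spread between calves (exact permutation test, p = 0.302). On total counts it was 0.0085 in the 9 (exact permutation test, p = 0.921). The difference between the sets was itself not called (log2 interaction 0.11, standard error 0.08, FDR = 0.800 from limma). The last 4 digits of the calf labels fall into 4 ranges, and in the only range with enough calves of each diet, 8 HI and 8 MOD, miR-29a differed by -0.089 (exact permutation test, p = 0.106), by -0.00077 on total counts (p = 0.989) and by -0.21 with upper quartile normalization (p = 0.00326). With these ranges as a block in limma it was -0.13 and did not pass (FDR = 0.104), while 2.86% of the 419 did.

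The other 5 members each had a lower mean in HI calves, and none passed FDR < 0.1 in limma with TMM scaling. Levels of miR-29c had a lowest, median and highest value of 828, 963 and 1067 CPM in HI calves and of 811, 1039 and 1136 CPM in MOD calves. The groups overlap over nearly all their range, with 12 of 15 HI calves below the MOD median, and the log2 difference was -0.076 (standard error 0.05, FDR = 0.590 from limma). It passed with upper quartile normalization (log2 difference -0.18, FDR = 0.0775 from limma). In the 21 libraries it was -0.076 (exact permutation test, p = 0.0458, not adjusted for the number of such tests). There it was -0.015 on total counts (exact permutation test, p = 0.752) and -0.17 with upper quartile normalization (p = 0.00500). In the label range with 8 calves per diet it was 0.029 (exact permutation test, p = 0.643).

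Levels of miR-29b were spread alike in both diets, with a lowest, median and highest value of 289, 431 and 621 CPM in HI calves and of 364, 421 and 657 CPM in MOD calves. The MOD median was exceeded by 9 of the 15 HI calves, while the log2 difference of the means was -0.069 (standard error 0.09, FDR = 0.873 from limma). In the 21 libraries it was 0.0077 (exact permutation test, p = 0.942). The members of low abundance overlapped between the diets as well. From 5.66 to 10.6 CPM of miR-29d-3p was measured in HI calves (median 7.09 CPM) and from 5.61 to 11.8 CPM in MOD calves (median 8.07 CPM), a log2 difference of -0.15 (standard error 0.10, FDR = 0.639 from limma). For miR-29e the range was 0.225 to 2.36 CPM in HI calves (median 1.15 CPM) and 0.615 to 1.96 CPM in MOD calves (median 1.22 CPM), a log2 difference of -0.10 (standard error 0.12, FDR = 0.853 from limma).

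On the 5p arm, miR-29d-5p ran from 70.0 to 119.9 CPM in HI calves (median 89.0 CPM) and from 80.6 to 115.6 CPM in MOD calves (median 93.7 CPM). Its log2 difference was -0.071 (standard error 0.07, FDR = 0.794 from limma), and it was 0.0026 in the 21 libraries. Over the 6 members the median log2 difference was -0.090, beside 0.02 over all 419 tested miRNAs, and 6 of 6 estimates were below 0 against 189 of 419. The members share libraries and scaling, so these estimates are not separate observations.

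**Figure D3:**
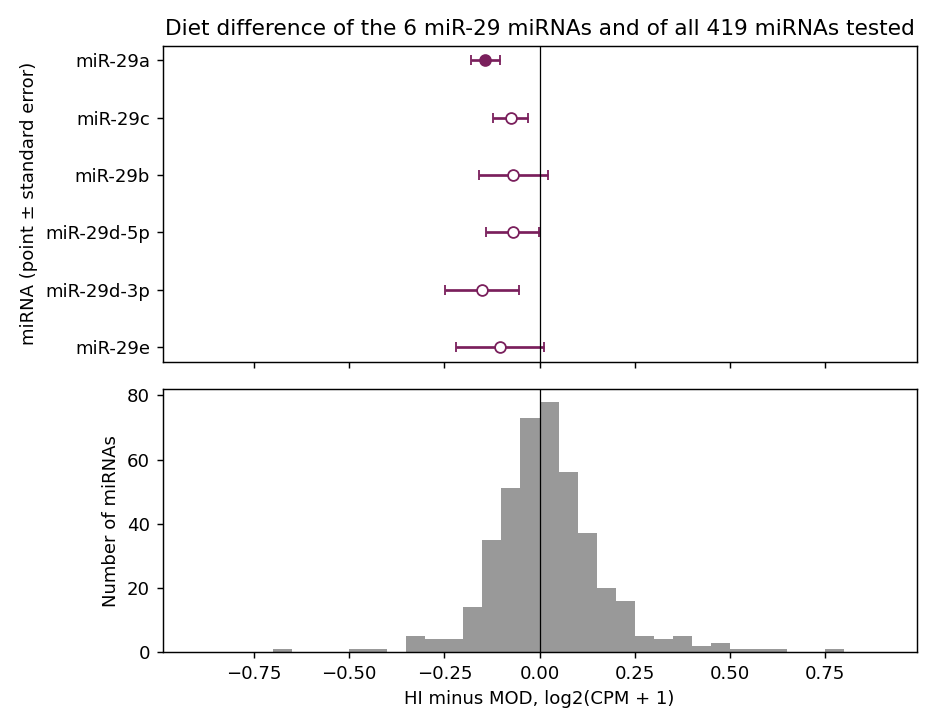
Upper panel: log2(CPM + 1) difference, HI minus MOD, of each of the 6 miRNAs with its standard error, where the filled point passed FDR < 0.1. Lower panel: histogram of the same difference over all 419 miRNAs tested; the 6 lie between -0.15 and -0.069, inside the main body of the histogram.

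That miR-29a passed and the others did not does not show that it moved differently from them. The ratio of miR-29a to each of the other 5 members, as a difference of log2(CPM + 1), was compared between the diets, a test chosen after the values were seen. On the log2 scale the ratio to miR-29c was 1.45 ± 0.0979 in HI and 1.51 ± 0.0950 in MOD calves (SD, n = 15 each), with 13 of 15 HI calves below the MOD median. This difference of -0.066 did not pass (two-sided permutation test, p = 0.0700, and 0.350 adjusted over the 5 ratios). The ratio to miR-29b differed by -0.073 (permutation p = 0.499), that to miR-29d-5p by -0.071 (p = 0.356), that to miR-29d-3p by 0.0081 (p = 0.942) and that to miR-29e by -0.038 (p = 0.757). As plain ratios with no pseudocount, on which the scaling of libraries has no bearing, the difference was -0.066 against miR-29c (permutation p = 0.0703), while that against miR-29e turned to 0.13 (permutation p = 0.627). In the 21 libraries the ratio to miR-29c differed by -0.096 (exact permutation test, p = 0.0277, and 0.138 adjusted), and in the 9 by -0.019 (exact permutation test, p = 0.714). In the range with 8 HI and 8 MOD calves all 8 HI calves had a ratio of miR-29a to miR-29c below the MOD median (log2 difference -0.12, exact permutation test, p = 0.0149, and 0.0746 adjusted over the 5 ratios).

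The arms of miR-29d were unequal, and their ratio differed between sets of libraries. In all 30 calves miR-29d-5p was above miR-29d-3p, by a median of 12.5 times and a range of 7.70 to 18.1. In the set of 9 libraries miR-29d-3p ran from 7.09 to 11.8 CPM (9.76 ± 1.81, SD, n = 9) and in the other 21 from 5.61 to 9.16 CPM (7.15 ± 0.986, SD, n = 21). Of the 9, 6 lay above the highest of the 21, and the log2 difference of the means, 0.39, was at place 26 from the highest among the 419 tested miRNAs. The ranges of miR-29d-3p overlap between the sets, while those of 5 of the 419 (1.19%) do not. By contrast miR-29d-5p was lower in the 9 libraries, with a log2 difference of -0.14 (88.4 ± 12.9 CPM against 97.0 ± 11.2 CPM), so that the ratio of the arms had a median of 8.36 in the 9 libraries and 13.6 in the 21. Levels of miR-29a, miR-29b, miR-29c and miR-29e were also lower in the 9, with log2 differences of -0.077, -0.11, -0.17 and -0.33. No test was made between these sets, because their boundary was drawn on values.

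Within the 9 libraries the diets did not overlap in miR-29d-3p with TMM scaling, by a gap smaller than 1 read. In the 5 HI calves it was at 7.09, 7.54, 7.64, 10.4 and 10.6 CPM, and in the 4 MOD calves at 10.6, 10.8, 11.5 and 11.8 CPM. The highest HI calf lay just below the lowest MOD calf, and the mean log2 value differed by -0.35 (exact two-sided permutation test, p = 0.0159, the smallest this design allows). It was 1 of 18 such tests, of 6 members in 3 sets of libraries, and in the 9 libraries 7 of the 419 miRNAs (1.67%) had ranges that did not overlap between the diets. On total counts the ranges did overlap, with HI calves at up to 10.4 CPM and MOD calves from 10.2 CPM, and the mean log2 value differed by -0.29 (exact permutation test, p = 0.0476). In the 21 libraries miR-29d-3p differed by -0.10 (exact permutation test, p = 0.180), and the change between the sets was not called (interaction FDR = 0.800 from limma).

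**Figure D4:**
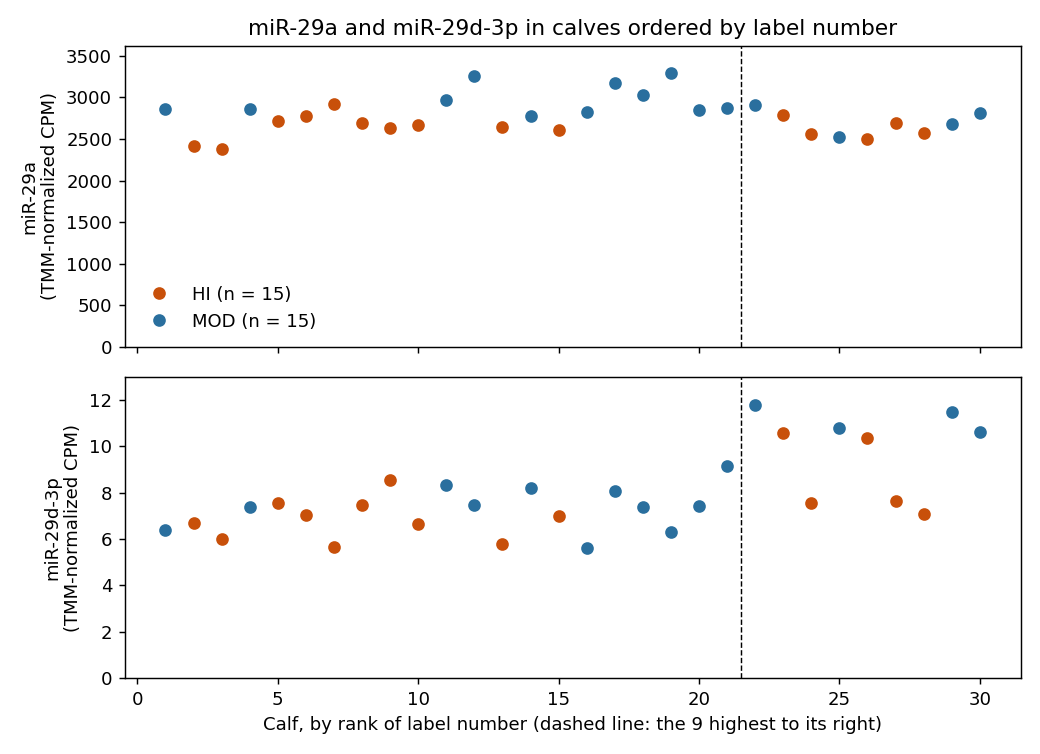
CPM of miR-29a (upper panel) and miR-29d-3p (lower panel) in the 30 calves ordered by label number, coloured by diet, with a dashed line before the 9 highest numbers. To the left of the line the HI calves reach 2927 CPM of miR-29a and the MOD calves 3291 CPM; to its right miR-29d-3p reaches 11.8 CPM, above the 9.16 CPM of the other 21.

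From calf to calf, some members varied together. Over the 30 calves 15 pairs were compared on log2(CPM + 1), with permutation tests adjusted over the 15, and 3 passed an adjusted p of 0.05 by rank. For miR-29a and miR-29c, made from different gene pairs, Spearman's rho was 0.62 (permutation test, adjusted p = 0.00210) and Pearson's r was 0.64 (adjusted p = 0.000825). It stayed at r = 0.63 without the 2 calves farthest from the median of miR-29a. Within the 21 libraries rho was 0.46 (adjusted p = 0.163 by permutation) and r was 0.57, and within HI and MOD calves r was 0.50 and 0.65. Between miR-29a and miR-29b, whose genes MIR29A and MIR29B-1 are neighbours, rho was -0.13 (permutation test, adjusted p = 0.781) and r was -0.10. For this pair rho was 0.18 on total counts and 0.26 with upper quartile normalization, neither of which passed. Within HI calves its rho was -0.62 and r -0.38, and within MOD calves 0.086 and -0.15, values that were not tested. Between miR-29b and miR-29c, whose genes MIR29B-2 and MIR29C are neighbours, rho was 0.20 (permutation test, adjusted p = 0.560) and r was 0.31. This pair passed on total counts (rho = 0.46, adjusted p = 0.0384 by permutation) and with upper quartile normalization (rho = 0.47, adjusted p = 0.0249).

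The closest pair was miR-29b with miR-29d-5p, at r = 0.81 (permutation test, adjusted p = 0.000150) and rho = 0.63 (adjusted p = 0.00210). Without the 2 calves farthest from the median of miR-29b, r was 0.75 and rho 0.55, and within the 21 libraries r was 0.76 and rho 0.52 (adjusted p of rho = 0.132 by permutation). The same 5 calves were the highest in both miRNAs. They held 563 to 657 CPM of miR-29b, with the next calf at 500.5 CPM, and 111.3 to 119.9 CPM of miR-29d-5p, with the next at 102.7 CPM. Of these calves 2 were HI and 3 were MOD. In the other 25 calves r was 0.57 and rho 0.37, so part of the relation rests on these 5. The third pair was miR-29c with miR-29d-5p, at rho = 0.52 (permutation test, adjusted p = 0.0172) and r = 0.43 (adjusted p = 0.0824), with r = 0.55 without the 2 calves farthest from the median of miR-29c and r = 0.40 in the 21 libraries. No relation between the arms of miR-29d was detected over the 30 calves, at r = -0.05 and rho = -0.11 (permutation test, adjusted p = 0.781 for rho). Within the 21 libraries r was 0.19 and within the 9 it was 0.38. With 49 to 115 reads of miR-29d-3p per library over all 30, counting alone gives a coefficient of variation of 12.0%. The 21 libraries held only 49 to 79 reads of it, for which the share from counting was not computed separately. Its whole variation there was 13.8%, so a relation between the arms could be missed in them.

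**Figure D5:**
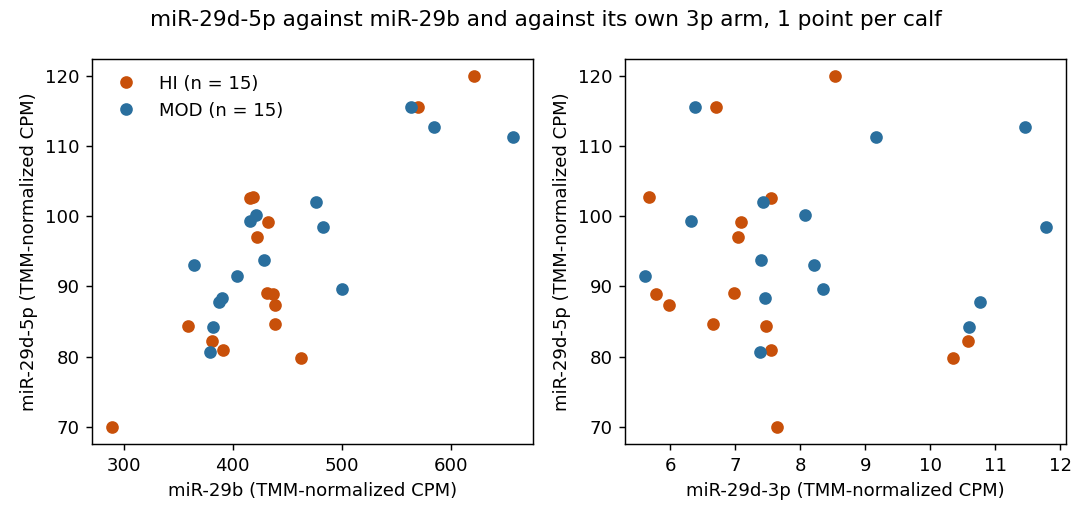
CPM of miR-29d-5p (y axis) against miR-29b (left) and against miR-29d-3p (right), with 1 point per calf coloured by diet (n = 15 each). On the left the 5 calves above 563 CPM of miR-29b are also the 5 above 111 CPM of miR-29d-5p; on the right no trend is seen, with rho = -0.11.

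The 3 miRNAs outside the family that followed each member most closely included miR-26b for 3 of the 6 members. By Spearman's rho on log2(CPM + 1) over the 30 calves, given as a description, miR-29a was nearest to miR-338 (rho = 0.85, and 0.90 in the 21 libraries), then to miR-26b (0.64, and 0.64) and miR-186 (0.63, and 0.68). The log2 difference of miR-338 between the diets, -0.21, did not pass (FDR = 0.106 from limma), and with miR-29c, the nearest member of its own family, miR-29a had a rho of 0.62. The nearest of miR-29c were miR-301a (0.72), miR-6123 (0.66) and miR-26b (0.66), and in the 21 libraries these values were 0.60, 0.44 and 0.70. Those of miR-29b were miR-19a (0.77), miR-19b (0.76) and miR-18a (0.73), miRNAs of the miR-17/92 cluster, which is known for promoting proliferation. In the 21 libraries the values of miR-29b were 0.78, 0.75 and 0.86. In the 25 calves without the 5 highest in miR-29b they were 0.70, 0.66 and 0.65. The nearest of miR-29d-5p were miR-26b (0.70), miR-98 (0.67) and miR-376c (0.65), with 0.66, 0.47 and 0.50 in the 21 libraries.

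For miR-29d-3p the nearest miRNAs were miR-99b (0.63), miR-7 (0.62) and miR-96 (0.59) over the 30 calves, and in the 21 libraries alone these values were 0.27, 0.40 and 0.24. For miR-29e they were miR-10a (0.63), miR-10b (0.52) and miR-9851 (0.46), and in the 21 libraries 0.40, 0.25 and 0.59. Of the nearest miRNAs of all 6 members, miR-26b passed FDR < 0.1 between the diets, with a log2 difference of -0.13 (FDR = 0.0396 from limma).

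Other miRNAs that MYC is known to repress along with miR-29 did not move in a common direction. All 19 listed were tested, 3 were higher and 2 lower in HI calves at FDR < 0.1 (beside 8 higher, 1.91%, and 7 lower, 1.67%, of all 419), and the median log2 difference was -0.014. Those that rose were miR-195 (0.41, FDR = 0.0177 from limma) and its cluster partner miR-497 (0.37, FDR = 0.0256), both with the miR-15 and miR-16 seed that acts on cell cycle genes, and miR-34a (0.49, FDR = 0.0256), a target of p53. Also listed were miR-15a (-0.069, FDR = 0.721 from limma), miR-16a (-0.10, FDR = 0.639) and miR-16b (-0.040, FDR = 0.902), which have that seed and did not rise. Called as lower were miR-26a (-0.29, FDR = 0.0613 from limma), with means of 54232 CPM in the HI and 65414 CPM in the MOD group, and miR-26b. The direction of the 5 that passed FDR < 0.1 was the same in each of the 4 scalings, but not every call was. With upper quartile normalization 2 of the 19 were higher and 4 lower, miR-497 no longer passing (FDR = 0.141 from limma), and on total counts 3 were higher and 1 lower, miR-26b no longer passing (FDR = 0.428). Without the 5 most abundant miRNAs in the library sizes 3 were higher and 0 lower in limma, with 4 of the 19 at an unadjusted p under 0.05. In edgeR's quasi-likelihood test miR-26a did not pass (FDR = 0.112). Among all 419 miRNAs, limma after upper quartile normalization called 3 as higher in HI calves and 26 as lower. On total counts it called 16 of them as higher and 2 as lower.

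Of 8 miRNAs of fibroblasts, pericytes and fibrosis, the setting in which miR-29 is best known, none passed FDR < 0.1 in limma. With TMM all 8 estimates were above 0, with a median log2 difference of 0.16, but with upper quartile normalization miR-145 (-0.059) and miR-21-5p (-0.070) were below 0, a pair named after their values were seen, and the median was 0.061. An unadjusted p under 0.05 was found for 2 of the 8, against 12.6% of the 419. These were miR-199a-3p (log2 difference 0.28, FDR = 0.314 from limma) and miR-199c (0.28, FDR = 0.314), near-identical miRNAs that share reads and which both averaged 523 CPM over the HI group and 420 CPM over the MOD group.

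No marker of another cell type passed FDR < 0.1 between the diets in limma with TMM scaling and no block, but red blood cell markers did in other fits. The 5 fibroblast and pericyte markers summed to 32132 to 183329 CPM in HI calves (median 44906 CPM) and 33338 to 76179 CPM in MOD calves (median 44408 CPM). None of them was at 0 in all libraries. The 2 endocrine markers summed to 119220 to 212047 CPM in HI and 134487 to 209427 CPM in MOD calves. The red blood cell markers had estimates of unlike sign, with log2 differences of 0.55 for miR-451 (FDR = 0.190 from limma), 0.46 for miR-144 (FDR = 0.115) and -0.27 for miR-486 (FDR = 0.274). Both miR-451 and miR-144 passed as higher in HI calves with edgeR (FDR = 0.0919 and 0.0508) and with DESeq2 (FDR = 0.0604 and 0.0271). In limma miR-144 passed on total counts (FDR = 0.0960), without the 5 most abundant miRNAs in the library sizes (FDR = 0.0934) and in the model that blocks on the 9 libraries (FDR = 0.0895), and with upper quartile normalization miR-486 passed as lower (FDR = 0.0886). With miR-486 as a covariate, chosen after the values were seen, the log2 difference of miR-29a was -0.17 with FDR = 0.0123 from limma. Because miR-486 differed in the opposite direction to miR-451 and miR-144, this fit cannot stand for an adjustment for red blood cells. The 4 white blood cell markers summed to 442 to 741 CPM in HI and 417 to 838 CPM in MOD calves, and the 2 endothelial ones to 8998 to 14949 CPM and 10836 to 16172 CPM. Of the striated muscle markers 1 of 3, and of the neural markers 1 of 2, passed the filter on low values, summing to at most 77.3 and 105 CPM. The part of these cell types in the diet difference of miR-29a was not tested.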

How the data were processed

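Small RNA libraries of 30 anterior pituitaries were analysed. Per the study's methods, adapters were trimmed with Cutadapt, reads were selected by length, matches to other short RNAs were discarded, and known bovine miRNAs were quantified by miRDeep2 on the ARS-UCD1.2 assembly. The authors deposited a normalized signal, CPM divided by a TMM factor per library, in place of counts. Read counts were obtained again from the smallest steps of each column, with at least 94.4% of low values whole, and edgeR's TMM factors on them matched the deposited ones within 6.44e-06. HI and MOD calves were compared by limma 3.58.1 in R 4.3.3, with an intensity trend, on log2(CPM + 1). The 419 miRNAs tested, among them all 6 members, passed edgeR's filterByExpr by diet. Calls were FDR < 0.1 with Benjamini-Hochberg adjustment, alone or with fold change > 1.5. The quasi-likelihood test of edgeR 4.0.16 and DESeq2 1.42.0 were run on the recovered counts, and other scalings, filters, blocks and left-out calves were alternatives. Ratios and correlations used two-sided permutation tests of 1e+05 resamples, and sets of libraries exact ones. The fit was tested on simulated data. The members and lists were chosen with earlier results of these data known. The named miRNAs are the members, the 3 nearest in rho to each, listed miRNAs at FDR < 0.1 or with the lowest p, markers, and the 3 most abundant. Sequences of these miRNAs were not used here.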

Additional observations from a re-analysis of the deposited data

How the results depend on the processing

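All values are log2 differences of HI from MOD calves unless stated. The direction of each member was the same under each test, scaling, pseudocount, filter, block and left-out calf tried when fitted over both sets of libraries. In the 21 libraries alone miR-29b was at 0.0077 and miR-29d-5p at 0.0026, and in the range with 8 calves per diet miR-29b, miR-29c and miR-29d-5p were at 0.065, 0.029 and 0.048. With upper quartile normalization, tried within sets after the data were seen, these turned to -0.084 and -0.088 in the 21 libraries and to -0.052, -0.088 and -0.069 in the range, while miR-29a in the range (-0.21) and miR-29d-5p in the 9 libraries (-0.32) passed an exact permutation test at 0.05. On total counts miR-29c in the 21 libraries no longer passed (-0.015), and in the 9 miR-29a (0.0085) and miR-29c (0.027) turned. The difference of miR-29a, -0.14 with the deposited scaling, lost FDR < 0.1 on total counts (-0.079), without the 5 most abundant miRNAs in the library sizes (-0.076), when label number ranges were blocked (-0.13) and in the 9 libraries alone (-0.057). The number of members called by limma was then 0 in place of 1. The number at an unadjusted p under 0.05 was 0 on total counts and 1 in each of the others. In the 9 libraries this 1 was miR-29d-3p (p = 0.0396 from limma), while miR-29a had p = 0.512. With edgeR's quasi-likelihood test the FDR of miR-29a was 0.0540 and with DESeq2 0.00287. With upper quartile normalization 2 members were called, since miR-29c also passed (-0.18). The 9 libraries are fewer samples, and for the remaining settings no cause was tested. Leaving out each of the 30 calves gave -0.16 to -0.13 for miR-29a, with FDR from 0.0179 to 0.0614, and 1 member called in each. The number of correlated pairs of members, 3 by rank, was 0 in the 21 libraries (3 by Pearson's r, against 2 in all 30), 4 on total counts and 5 with upper quartile normalization. For the miR-29d arms rho, -0.11 in all 30, was 0.18 in the 21 libraries and 0.20 with upper quartile normalization, and for miR-29a with miR-29b, -0.13 in all 30, it was 0.18 on total counts and 0.26 with upper quartile normalization. The difference in the ratio of miR-29a to miR-29d-3p turned from 0.0081 to -0.068 in the 21 libraries, and in the 9 those to miR-29b, miR-29d-5p and miR-29e turned to 0.17, 0.16 and 0.055, none of them past the threshold. Without a pseudocount the ratio to miR-29e turned from -0.038 to 0.13. No paired analysis was possible because replicates are not numbered in the labels (the numbers used here follow accession order), which name neither farm nor sire. Depth limits miR-29e, at 2 to 18 reads per library, and the limit of 3 reads covers counting error only.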
